A study of Mus musculus with 10 samples.

Results

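Calmodulin and the protein kinases it switches on were followed as RNA in cells sorted for cortical projection neurons from mice with a conditional Cdk7 deletion. The set was defined by gene name and holds 9 genes, Calm2 and Calm3, which encode calmodulin, Camk2a, Camk2b, Camk2d and Camk2g, which encode the 4 subunits of CaM kinase II, and the kinase genes Camk4, Camkk1 and Camkk2. All 9 were found among the 55573 genes of the deposited count table, of which 28204 had at least 1 count. The 5 Cdk7_KO libraries came from pups with 1 NexCre allele, floxed Cdk7 on both chromosomes (Cdk7lox/lox) and 1 R26EYFP reporter allele. The 5 Ctrl libraries came from pups with the same driver and reporter and wild-type Cdk7 (Cdk7+/+). Each library was 1 preparation from 1 mouse at postnatal day 3, made from cells sorted for EYFP, with polyA-selected RNA. NexCre drives Cre recombinase through Neurod6, a gene of young glutamatergic cells in the dorsal forebrain, so the deletion and the reporter both depend on that lineage, and other cells keep Cdk7. CDK7 is a kinase of the transcription factor TFIIH and activates cell cycle kinases.

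Calmodulin is a small calcium sensor. When calcium enters a neuron, calcium-bound calmodulin opens the autoinhibited kinases. CaM kinase II is a large assembly of alpha, beta, gamma and delta subunits that keeps itself active by phosphorylating a threonine next to its calmodulin-binding segment, and it is central to synaptic plasticity in the cortex. A second arm is a cascade in which the CaM kinase kinases phosphorylate CaM kinase I and the nuclear CaM kinase IV, which in turn phosphorylates the transcription factor CREB. In the rodent forebrain the beta subunit of CaM kinase II appears early and the alpha subunit accumulates over the weeks after birth.

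The sequences below come from GENCODE M21 transcripts (GRCm38) and show what the counting had to tell apart. Calm2 and Calm3 code for the same protein with different codons. Of 447 coding bases (stop codon left out) 369 were identical, or 82.6%, and all 76 of the 149 codons that differed were synonymous. The first 90-base coding stretch that lies within 1 exon in both genes (coding bases 37 to 126, chr17:87435843-87435932 and chr7:16917637-16917726, both on the minus strand) is shown with the 16 differing bases in capitals.
Calm2: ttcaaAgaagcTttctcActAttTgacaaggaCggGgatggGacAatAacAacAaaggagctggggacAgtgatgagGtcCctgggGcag
Calm3: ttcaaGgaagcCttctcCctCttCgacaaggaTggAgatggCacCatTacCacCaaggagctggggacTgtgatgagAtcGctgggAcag
The CaM kinase II genes are alike around the autophosphorylated threonine. The 57 bases around codon 287 of the beta, delta and gamma genes are shown with that codon in capitals (Camk2b chr11:5988967-5989023, minus strand, Camk2d chr3:126797717-126797773, plus strand, Camk2g chr14:20760409-20760465, minus strand).
Camk2b: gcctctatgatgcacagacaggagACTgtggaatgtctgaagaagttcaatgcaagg
Camk2d: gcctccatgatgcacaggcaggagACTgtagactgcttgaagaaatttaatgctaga
Camk2g: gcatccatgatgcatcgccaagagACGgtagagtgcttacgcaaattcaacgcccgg
Over these 57 bases Camk2b and Camk2d differed at 10, Camk2d and Camk2g at 16, and Camk2b and Camk2g at 19. Of the 19 codons, 1 encoded another amino acid in Camk2d than in Camk2b.

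Before the members, the libraries themselves were checked. Library totals spanned 23497621 to 31233466 counts, with 19467 to 21583 genes detected. Cdk7 was lower in Cdk7_KO, with 5.16 ± 1.30 CPM (counts scaled to the library total) in Cdk7_KO and 15.7 ± 4.00 CPM in Ctrl (SD, n = 5 each, two-sided exact permutation p = 0.00794, the smallest that 252 assignments can give). Its log2 fold change was -1.54 (edgeR adjusted p = 0.161). The 8 projection neuron markers were present in every library and had positive log2 fold changes (median 0.31). Their summed levels were 1800 to 2416 CPM in Cdk7_KO and 1530 to 2290 CPM in Ctrl. edgeR called 0 of the 8 after adjustment and gave 3 as higher at an unadjusted p under 0.05, beside 4.90% of all genes. By the mean of log2(CPM + 1), 1 of the 8 was lower in Cdk7_KO. Genes of other cells were present too, and were compared by that same mean. All 12 astrocyte, 11 radial glia, 10 endothelial and pericyte, 10 microglia, 8 oligodendrocyte lineage and 11 interneuron markers had lower means in Cdk7_KO. After adjustment edgeR called 0 of these markers. At an unadjusted p under 0.05 it gave 9 of 11 tested astrocyte, 11 of 11 radial glia and 10 of 10 vascular markers as lower. It also gave 5 of 10 microglia, 6 of 8 oligodendrocyte lineage and 1 of 11 interneuron markers, beside 10.5% of all genes. Astrocyte markers summed to 129.4 to 642.7 CPM in Cdk7_KO and 543.4 to 1131 CPM in Ctrl, and radial glia markers to 679 to 1601 CPM in Cdk7_KO and 1479 to 2379 CPM in Ctrl. The sums were 50.8 to 280.1 CPM in Cdk7_KO and 196.1 to 1256 CPM in Ctrl for vascular, and 75.2 to 230.8 CPM in Cdk7_KO and 145.4 to 432 CPM in Ctrl for microglia markers. They were 202.9 to 565 CPM in Cdk7_KO and 332.6 to 934.9 CPM in Ctrl for oligodendrocyte lineage, and 24.8 to 279.2 CPM in Cdk7_KO and 89.3 to 407.4 CPM in Ctrl for interneuron markers. No marker was at 0 in all libraries. The part of these cells in the values below was not tested, and in sorted bulk RNA fewer cells of a type and less RNA per cell cannot be told apart. Xist and Ddx3y placed 3 Cdk7_KO and 2 Ctrl libraries in a male set and 2 Cdk7_KO and 3 Ctrl libraries in a female set.

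The calmodulin genes stood far above the kinases in both genotypes once length was taken into account. Per length of the gene's merged exons, in TPM (length-corrected counts scaled to a common total), Calm2 was at 1778 ± 190.8 TPM in Cdk7_KO and 1684 ± 116.8 TPM in Ctrl, and Calm3 at 1434 ± 53.5 TPM in Cdk7_KO and 1446 ± 115.3 TPM in Ctrl (SD, n = 5 each). In Ctrl, Calm2 exceeded 99.8% and Calm3 99.7% of all detected genes. Camk2b led the kinases with 281.0 ± 31.8 TPM in Cdk7_KO and 275.9 ± 48.6 TPM in Ctrl. Camk2g followed with 94.7 ± 9.82 TPM in Cdk7_KO and 94.8 ± 10.2 TPM in Ctrl. The next genes lay close together: Camkk2 at 38.1 ± 6.64 TPM in Cdk7_KO and 40.5 ± 3.02 TPM in Ctrl, Camkk1 at 37.6 ± 5.42 TPM in Cdk7_KO and 39.9 ± 7.05 TPM in Ctrl, and Camk4 at 30.8 ± 10.2 TPM in Cdk7_KO and 29.1 ± 7.00 TPM in Ctrl. Camk2a, the subunit best known from the adult forebrain, was at 19.99 ± 4.45 TPM in Cdk7_KO and 19.96 ± 3.13 TPM in Ctrl. Camk2d, a subunit prominent in heart, was last with 2.79 ± 0.74 TPM in Cdk7_KO and 2.92 ± 0.73 TPM in Ctrl.

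Calm2 was above Calm3, Calm3 above Camk2b, Camk2b above Camk2g, Camk2g above Camkk2, Camk4 above Camk2a and Camk2a above Camk2d in all 10 libraries. Camkk2 and Camkk1 could not be ordered, since Camkk2 was the higher in 3 of 5 Cdk7_KO and 3 of 5 Ctrl libraries. Camkk1 was above Camk4 in 8 of the 10 libraries. The distance between genes depends on the length used, because merged exons join the exons of all transcripts: for Camk2d they span 22493 bases and the longest transcript 5524. With the longest transcript as length the order of the 9 genes was the same, but Camkk2 was clearly above Camkk1 (65.9 ± 11.3 and 29.0 ± 4.07 TPM in Cdk7_KO, 69.7 ± 5.09 and 30.7 ± 5.34 TPM in Ctrl) and Camk2d reached 8.73 ± 2.28 TPM in Cdk7_KO and 9.11 ± 2.25 TPM in Ctrl. Without any length, Calm3 was above Calm2. Of the raw counts of both, Calm2 held 40.4% to 45.3% in Cdk7_KO and 37.8% to 44.1% in Ctrl. Camk2a was likewise above Camk4 (means 39.9 and 26.8 CPM in Cdk7_KO, 39.0 and 24.8 CPM in Ctrl).

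**Figure D1:**
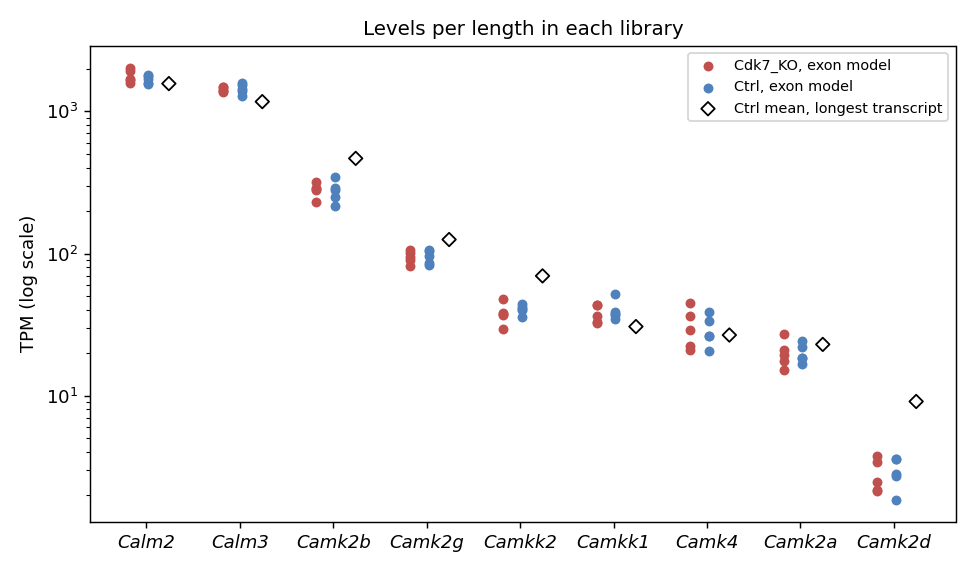
Level of each gene in TPM (log axis), 1 point per library, per length of merged exons, with the Ctrl mean per length of the longest transcript as an open diamond. Calm2 and Calm3 lie far above the kinases and Camk2d lies lowest, and the points of both genotypes overlap for each gene.

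Set against Ctrl, the Cdk7_KO libraries addressed whether these RNAs respond to the deletion. None of the 9 genes passed the test between Cdk7_KO and Ctrl. In edgeR's quasi-likelihood test over 15578 genes, 0 of 9 members passed at an adjusted p of 0.05, and over all genes 0 passed (0%). At an unadjusted p under 0.05 the test gave 2393 genes (15.4%) and 0 of the 9 members. DESeq2 called 561 of 17259 genes (3.25%) and 0 members, and limma-voom called 0 genes (0%). The CPM of the genotypes did not overlap for 470 genes (3.02%) and overlapped for all 9 members. The log2 fold changes lay between -0.0027 (Camkk2) and 0.16 (Calm2), and their median was 0.08, beside 0.01 over all genes tested. All 9 members passed the filter on low counts, and the lowest count of any member in a library was 291, for Camk2d.

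The calmodulin genes had the narrowest intervals. Calm2, on chromosome 17 (chr17:87433412-87446935), was at 615.0, 749.1, 794.4, 671.0 and 662.3 CPM in Cdk7_KO replicates 1 to 5 and at 685.9, 712.9, 636.2, 591.5 and 603.9 CPM in Ctrl replicates 1, 3, 4, 5 and 6. Cdk7_KO replicates 2 and 3 lay above every Ctrl library and the other 3 within the Ctrl range. Its log2 fold change of 0.16 had an SE of 0.08 (95% interval -0.0026 to 0.33, edgeR adjusted p = 0.332), which is 1.12-fold with an interval of 0.998 to 1.26. Calm3 (chr7:16915379-16924114) was at 881.4, 904.2, 961.2, 930.1 and 977.2 CPM in the Cdk7_KO and at 877.2, 992.9, 806.7, 911.8 and 993.8 CPM in the Ctrl replicates. The Cdk7_KO values all fell inside the Ctrl range. Its fold was 1.05 (0.945 to 1.17, edgeR adjusted p = 0.669).

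Of the CaM kinase II genes, Camk2b (chr11:5969644-6066362), whose product binds actin filaments, was at 563.9, 700.5, 779.8, 685.9 and 703.2 CPM in Cdk7_KO replicates 1 to 5 and at 826.5, 684.3, 506.6, 592.4 and 683.7 CPM in Ctrl replicates 1, 3, 4, 5 and 6. The highest and the lowest library were both Ctrl. Its log2 fold change of 0.11 had an SE of 0.13 (interval -0.16 to 0.38, edgeR adjusted p = 0.73). Camk2a (chr18:60925618-60988152) was at 30.3, 41.6, 53.7, 35.2 and 38.9 CPM in Cdk7_KO and at 43.1, 48.6, 35.6, 32.3 and 35.5 CPM in Ctrl. Here the extremes were both Cdk7_KO, replicate 3 above and replicate 1 below all Ctrl libraries, and the log2 fold change was 0.08 (SE 0.15, edgeR adjusted p = 0.846). Camk2g (chr14:20734875-20794088), a subunit known to carry calmodulin to the nucleus, ranged from 141.0 to 181.4 CPM in Cdk7_KO and from 139.0 to 174.7 CPM in Ctrl (log2 fold change 0.08, SE 0.09, edgeR adjusted p = 0.683). Camk2d (chr3:126596302-126846326) ranged from 13.1 to 22.4 CPM in Cdk7_KO and from 10.8 to 21.8 CPM in Ctrl (log2 fold change 0.01, SE 0.20, edgeR adjusted p = 0.984).

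No gene of the nuclear cascade passed the test. Camk4 (chr18:32934931-33191228), the CREB kinase, was at 19.3, 31.8, 39.1, 18.3 and 25.7 CPM in Cdk7_KO replicates 1 to 5 and at 22.6, 33.7, 28.01, 22.4 and 17.4 CPM in Ctrl replicates 1, 3, 4, 5 and 6. It had the widest spread of the set, 2.25-fold between the lowest and the highest library, with the lowest in Ctrl and the highest in Cdk7_KO. The fitted difference was 0.16 on the log2 scale with an SE of 0.21 (interval -0.31 to 0.62, edgeR adjusted p = 0.771). An antisense gene, 2310026I22Rik, overlaps a Camk4 exon, but had 27 counts over all libraries against 6775 for Camk4. Camkk1 (chr11:73019008-73042073) ranged from 32.2 to 43.2 CPM in Cdk7_KO and from 33.3 to 51.0 CPM in Ctrl (log2 fold change -0.0017, SE 0.13, edgeR adjusted p = 0.997). Camkk2 (chr5:122731170-122779409), which also activates AMP-activated kinase, ranged from 85.6 to 139.9 CPM in Cdk7_KO and from 101.2 to 126.2 CPM in Ctrl (log2 fold change -0.0027, SE 0.11, edgeR adjusted p = 0.995). Fold changes use TMM scaling and can differ slightly from the ratio of mean CPM.

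**Figure D2:**
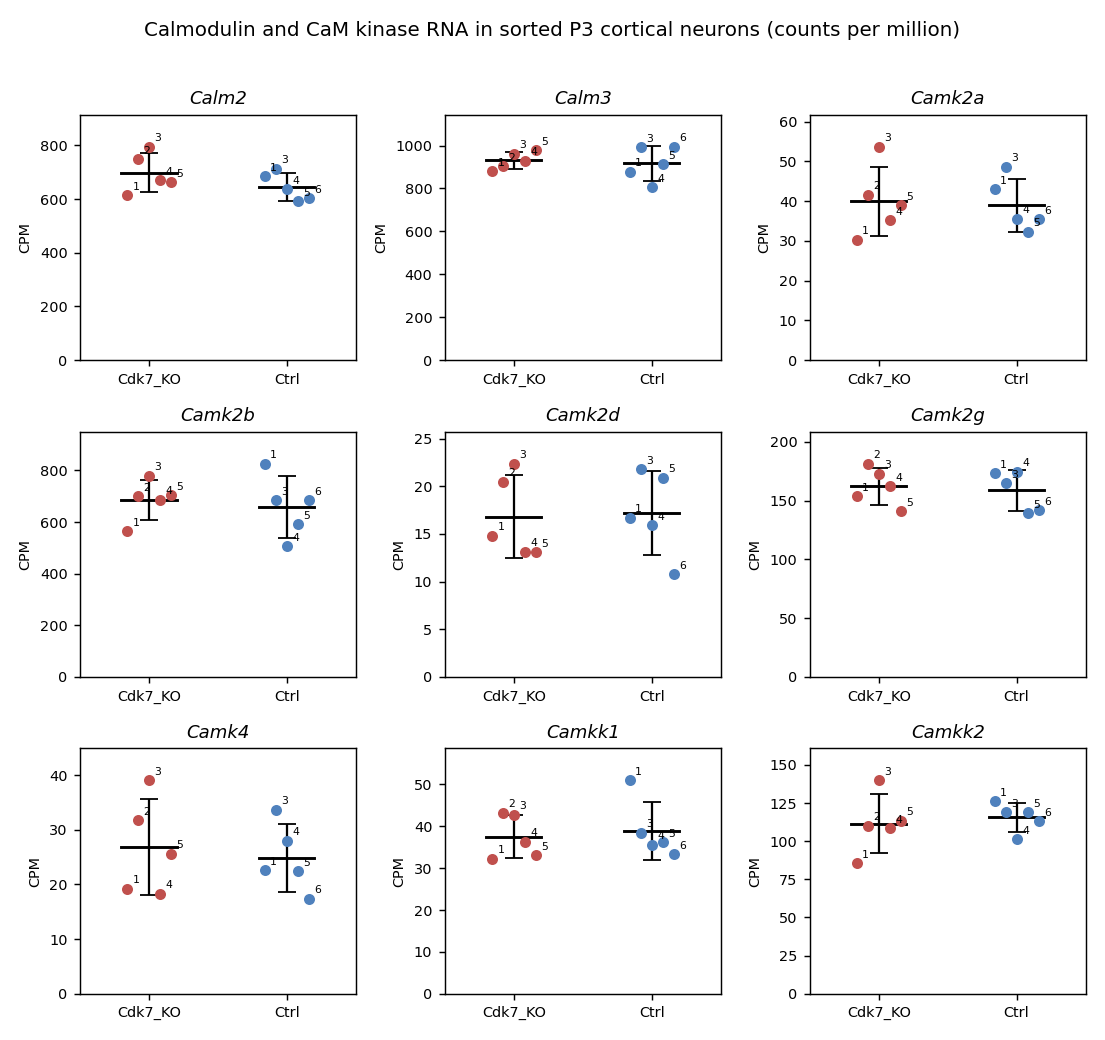
CPM of each gene in the 5 Cdk7_KO and 5 Ctrl libraries, with points numbered by replicate, the mean as a line and the SD as a bar. The genotypes overlap in every panel, and Cdk7_KO replicate 3 is the highest of the 10 libraries for 5 of the 9 genes.

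Relative to the other RNA of a library, the intervals limit how large a change could have been. TMM scaling sets each gene against the rest, so a change shared by all RNA would not show. The part of other cells, whose markers had lower means in Cdk7_KO, was not tested. For 8 of the 9 genes the 95% interval lay within 1.5-fold in either direction, and for Camk4 it ran from 0.809 to 1.54. Cdk7 itself, in the same fit, was at 0.343-fold with an interval of 0.245 to 0.48. Between the lowest and the highest of the 10 libraries, the CPM of a member differed from 1.23-fold (Calm3) to 2.25-fold (Camk4). Cdk7_KO replicate 3 had the highest CPM of all libraries for 5 members, and Cdk7_KO replicate 1 was among the lowest 3 for 7 members.

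**Figure D3:**
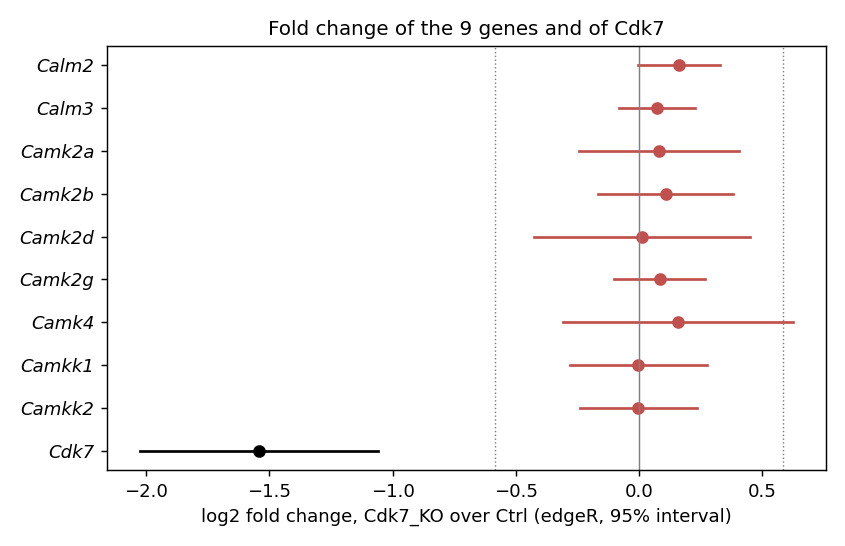
Log2 fold change of Cdk7_KO over Ctrl with its 95% interval (edgeR) for the 9 genes and for Cdk7, with dotted lines at 1.5-fold. All 9 intervals include 0 and only that of Camk4 crosses a dotted line, at 1.54-fold, while that of Cdk7 ends at 0.48-fold.

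Within the male and the female set, several log2 fold changes had opposite signs. Camk2b was at -0.14 among male libraries and 0.32 among female ones, a difference of -0.44 (male minus female, SE 0.22, edgeR adjusted p = 0.665). Camk2a was at -0.12 and 0.20, Camkk1 at -0.17 and 0.08, Camkk2 at -0.12 and 0.09, Calm3 at -0.02 and 0.17, and Camk2d at 0.01 and -0.17, male value first. Calm2 (0.05 and 0.22), Camk2g (0.02 and 0.10) and Camk4 (0.10 and 0.06) were positive in both. The test of the difference between the sets passed for 0 of 9 members and 0 of 15578 genes (edgeR, 0%). Without a filter on low counts it passed for Camk2b (-0.46, SE 0.13, edgeR adjusted p = 0.037), among 338 of 28204 genes (1.20%).

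The makeup of CaM kinase II RNA is free of any scaling between libraries, since each gene is set against its family in the same library. Camk2b held most of it in both genotypes. Its share of the summed counts per kilobase was 68.2%, 68.8%, 70.8%, 71.1% and 73.5% in Cdk7_KO replicates 1 to 5 and 72.9%, 69.3%, 62.9%, 70.7% and 73.2% in Ctrl replicates 1, 3, 4, 5 and 6. Of the Cdk7_KO shares, 4 of 5 lay within the Ctrl range and replicate 5 just above it, with a difference of 0.676 percentage points (SE 2.09, two-sided exact permutation p = 0.81, 0.857 adjusted over the 6 shares tested). Camk2g held 23.9 ± 2.23% in Cdk7_KO and 24.4 ± 3.80% in Ctrl, Camk2a 4.97 ± 0.61% in Cdk7_KO and 5.08 ± 0.61% in Ctrl, and Camk2d 0.695 ± 0.14% in Cdk7_KO and 0.754 ± 0.22% in Ctrl (SD, n = 5 each, exact permutation p = 0.841, 0.817 and 0.627). Within the male and female sets the difference in share was -1.83 and 3.34 points for Camk2b and 1.98 and -2.93 points for Camk2g, with no test. The ratio of Camk2b to Camk2a per length was 14.3 ± 1.56 in Cdk7_KO and 13.9 ± 2.16 in Ctrl. With the longest transcript as length it was 21.1 ± 2.30 in Cdk7_KO and 20.5 ± 3.18 in Ctrl. Camk2a RNA was far below Camk2b RNA in every library, the lowest ratio with merged exons being 11.5 in a Ctrl library.

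**Figure D4:**
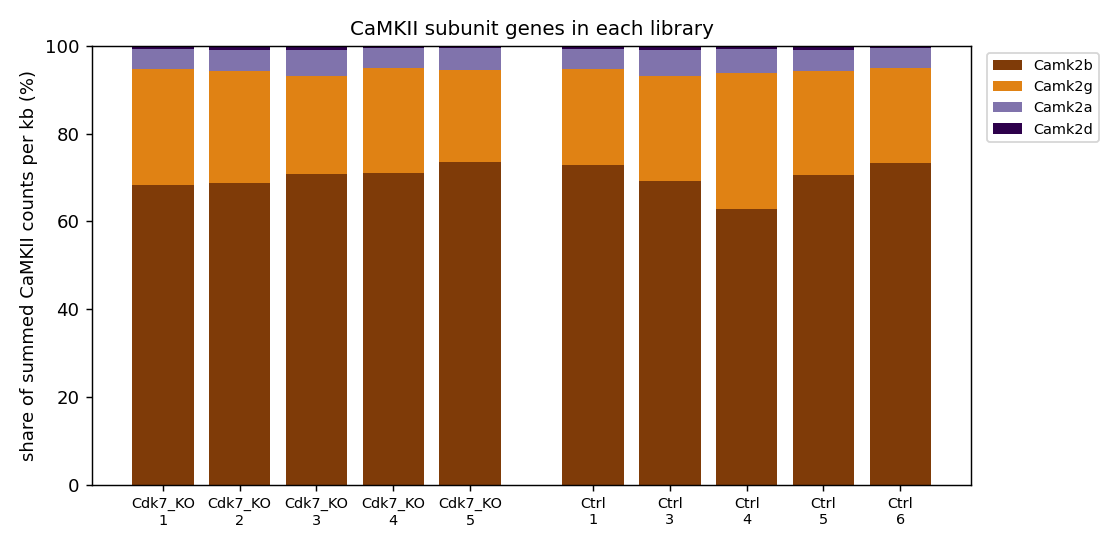
Share of each CaM kinase II gene in the summed counts per kilobase of the 4 genes, 1 bar per library, Cdk7_KO on the left and Ctrl on the right. Camk2b takes between 62.9% and 73.5% in every library, and the largest Camk2g share is 30.9% in Ctrl replicate 4.

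The shares within the other families did not pass a test either. Calm2 made up 55.2 ± 2.35% of Calm2 and Calm3 per length in Cdk7_KO and 53.8 ± 2.85% in Ctrl, a difference of 1.45 points (SE 1.65, exact permutation p = 0.413, adjusted 0.857, n = 5 each). The summed level of Calm2 and Calm3 was 3213 ± 219.8 TPM in Cdk7_KO and 3130 ± 150.7 TPM in Ctrl. Camkk1 made up 49.8 ± 3.17% of both CaM kinase kinase genes in Cdk7_KO and 49.4 ± 3.15% in Ctrl (difference 0.341 points, SE 2.00, exact permutation p = 0.857). With the longest transcript as length that share was 30.7 ± 2.70% in Cdk7_KO and 30.4 ± 2.71% in Ctrl.

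Across the 10 libraries the members tended to vary together. This is a description only. CPM scale out the library total, but the summed marker levels of other cells differed between libraries, and their part in r was not tested. Of 36 pairs, 33 had a positive Pearson r of log2(CPM + 1), with a median of 0.546. The pairs share genes and are not independent, and the same share was not taken for pairs of other genes. The closest pair was Calm2 and Camk2a (r = 0.885, and 0.954 after removing the genotype means), followed by Camk4 and Camk2a (0.80). The 3 pairs with a negative r all held Calm3, with Camk2g (-0.436), Camkk1 (-0.15) and Camk2d (-0.075). Its other pairs ran from 0.065 with Camk4 and 0.212 with Calm2 to 0.543 with Camk2b. The genes most like each member were picked for the highest r among many genes over only 10 libraries. The size of these r is thus partly set by that choice. The genes whose pattern was most like a member's, among 10646 genes with a mean of at least 5 CPM, were Tmem59l, Farsa and Tsc2 for Calm2 (r between 0.953 and 0.974) and Ndufb7, Alg9 and Rab11a for Calm3 (0.917 to 0.934). For Camk2a they were the 14-3-3 gene Ywhah, the syntaxin gene Stx1a and Rab15 (0.961 to 0.967), and for Camk2b Usp43, the CDK5 activator gene Cdk5r2 and the glutamate receptor gene Grm2 (0.937 to 0.951). For Camk4 they were Tshz2, Hs3st4 and the neurotensin gene Nts (0.946 to 0.957), and for Camk2g Gtpbp6, Wdr13 and Epha6 (0.944 to 0.981). For Camk2d they were Scg2, Cyc1 and Igfbp3 (0.910 to 0.920), for Camkk1 the salt-inducible kinase gene Sik1, Neurl1b and Aopep (0.937 to 0.969), and for Camkk2 Mrps6, Aacs and Faah (0.929 to 0.934).

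**Figure D5:**
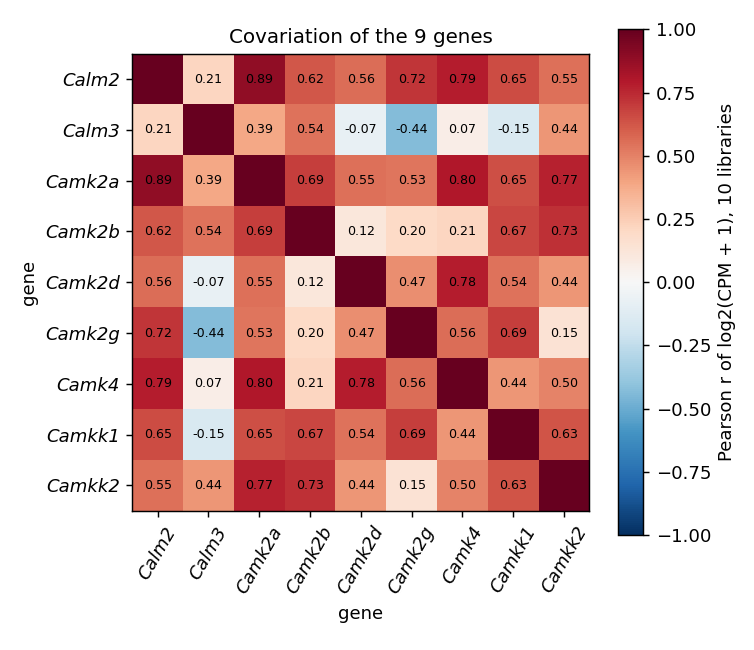
Pearson r of log2(CPM + 1) between each pair of the 9 genes over the 10 libraries of both genotypes, from blue (negative) to red (positive). Calm2 and Camk2a have the highest value, 0.885, and Calm3 and Camk2g the lowest, -0.436.

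Among other genes of the pathway none passed either. Of 58 related genes in 8 lists, all tested, edgeR called 0 after adjustment over all genes, and at an unadjusted p under 0.05 it gave 2 higher and 4 lower, beside 4.90% and 10.5% of all genes. Of the 58, 33 had a positive log2 fold change, and the median was 0.03. Both higher ones came from the list of calcineurin and its regulators, in which 4 of 11 genes were positive (median -0.10). That list also holds Nfatc1, 1 of the 4 lower genes. Calcineurin is the calmodulin-dependent phosphatase that opposes the kinases. Ppp3r1, its regulatory subunit, was at 176.7 ± 9.04 CPM in Cdk7_KO and 165.4 ± 5.95 CPM in Ctrl (log2 fold change 0.15, SE 0.05, edgeR adjusted p = 0.216), and the catalytic gene Ppp3cb at 394.5 ± 8.59 CPM in Cdk7_KO and 372.0 ± 11.7 CPM in Ctrl (0.14, SE 0.05, edgeR adjusted p = 0.245). The 4 lower ones were Atf1, a CREB relative (log2 fold change -0.36, edgeR adjusted p = 0.21), Ppm1f, a CaM kinase phosphatase (-0.23, 0.308), and the weakly expressed genes Pcp4l1 (-1.22, 0.24, 1.02 CPM in Cdk7_KO and 2.46 CPM in Ctrl) and Nfatc1 (-1.06, 0.20, 1.31 CPM in Cdk7_KO and 2.83 CPM in Ctrl).

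Among the further CaM kinase genes, Camk1g, a CaM kinase I isoform, had the smallest p and did not pass (0.17, SE 0.08, edgeR adjusted p = 0.359). It was at 25.6 ± 1.40 CPM in Cdk7_KO and 23.7 ± 0.55 CPM in Ctrl (SD, n = 5 each). Its CPM only just did not overlap, as in 3.02% of all genes. The lowest Cdk7_KO library was at 24.23 CPM and the highest Ctrl library at 24.21 CPM. The CaM kinase II inhibitors and kinase phosphatases (median 0.09), with Camk2n2 at 310.0 TPM in Cdk7_KO and 310.3 TPM in Ctrl, and the calmodulin-binding growth cone gene Gap43 (0.11, edgeR adjusted p = 0.715) were not called. The listed IQ-motif proteins had 3 of 4 positive (median 0.11) and calcineurin and its regulators 4 of 11 (median -0.10). The CREB and CRTC factors had 6 of 9 positive (median 0.04) and the AMP-activated kinase alpha subunits 1 of 2 (median 0.04). Not called either were the cyclases and phosphodiesterases (median -0.0043, Adcy1 -0.05, Pde1c 0.30), the AMP-activated kinase gene Prkaa2 (0.12) and the CREB coactivator gene Crtc1 (0.11). Of 12 synaptic partners of CaM kinase II 5 were positive, with a median of -0.01, the synapsin gene Syn1 at 0.07 and the AMPA receptor gene Gria1 at 0.18 (edgeR adjusted p = 0.727 and 0.336).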

How the data were processed

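The deposited table holds raw counts per gene for each library, whole numbers that the authors did not normalize. The tools named per the submitters' processing notes are STAR and Salmon, and the build is GRCm38, with versions, counter, strand setting and annotation not given in the sources used here. All 10 count columns were matched to samples by name. Positions and lengths came from GENCODE M21 (55480 of 55573 IDs matched), and where IDs shared a symbol the one with the most counts was used. Reads shared by near-identical copies cannot be assigned with certainty. The main test on the counts was that of edgeR 4.0.16 in R 4.3.3 (filterByExpr with a minimum count of 10, TMM, quasi-likelihood test, Benjamini-Hochberg over 15578 genes, threshold 0.05), with genotype alone in the model. The SE came from the F statistic. CPM use library totals, TPM the length of merged exons. Shares within a family were compared by two-sided exact permutation over 252 assignments. DESeq2 1.42.0 and limma 3.58.1 (voom) were alternatives, and DESeq2 left 10945 adjusted p-values missing. Other alternatives were scaling, filtering, robust estimation, the replicate number as a block, sex set, leaving out each library, and length. The tests were also run on simulated data. The smallest chi-square per gene between 2 libraries was 11.2, and each library was kept as its own replicate. Members and lists were chosen with earlier results of these data known. The text names all members, the related gene of each list with the smallest p and the one with the highest level, and the 3 genes most correlated with each member, leaving out predicted models, Y-linked genes, Xist and Tsix. Ppp3cb was named in addition, after its values were seen. A related gene that this rule names is not reported here.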

Additional observations from a re-analysis of the deposited data

Results flagged for a closer look

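The Camk2g share of CaM kinase II counts per kilobase in Ctrl replicate 4 was 30.9%, far from the other 4 Ctrl libraries, which lay between 21.6% and 23.8%. The same library had the lowest Camk2b share, 62.9%. It was 1 of 30 groups of 5 libraries examined for a single distant value (CPM of the 9 genes and 6 shares in each genotype), and chance gives about 1 in 20.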

How the results depend on the processing

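No member and no related gene passed under any of the 21 alternatives to the genotype test, and the members' adjusted p lay between 0.194 and 1.0, and those of the shares between 0.659 and 1.0. Cdk7 itself did not pass the main test (edgeR adjusted p = 0.161), and passed only in the alternatives whose adjusted p is given for it below. In the other settings a lack of calls among the members therefore says little about small changes. Of 300 alternative fold changes and share differences, 254 kept their sign and 46 changed it, of which 0 passed a test and 5 had none. The cause was not tested. Over all genes, 561 were called by DESeq2, 1 without a low-count filter, 5 with the replicate block, 732 with sex set as a factor, and 0 to 5 when leaving out 1 library (5 without Cdk7_KO replicate 1). The log2 fold change of Cdk7 was -1.54 by DESeq2 (adjusted p = 2.4e-08), -1.54 without a filter (edgeR adjusted p = 0.0393), -1.43 with sex set (edgeR adjusted p = 0.00828), and -1.68 to -1.44 when leaving out 1 library (edgeR adjusted p = 0.0391 without Cdk7_KO replicate 1). Without a filter, the difference between sex sets passed for 1 member, Camk2b. Signs changed in male libraries for Calm3 (-0.016), Camk2a (-0.12) and Camk2b (-0.14), and in female libraries for Camk2d (-0.17), Camkk1 (0.085) and Camkk2 (0.093). Camk2d was also at -0.037 with library totals, -0.0076 when filtered at a mean of 1 CPM and -0.078 with sex set, and Camkk1 at 0.011 by voom and 0.00016 without a filter. Replicate numbers did not pair the libraries (r of same-numbered libraries -0.104 to 0.314, and none closest to its own number). With the replicate block, Camk2d was at -0.20, Camk4 at -0.040, the Camkk1 share at -1.36 points and the Calm2 share at -0.11 points. In the edgeR fit and in the shares alike, the genotype difference with the block rests on replicates 1, 3, 4 and 5, the numbers found in both genotypes. The permutation test of a share with the block therefore could not reach a p of 0.05. Within the male libraries the share differences were -1.83 points for Camk2b, 1.98 for Camk2g, 0.0435 for Camk2d and -0.372 for Camkk1, and within the female libraries 3.34, -2.93, -0.207 and -0.261, with no test. The block gave 1.96 points for Camk2b and -1.57 for Camk2g. Leaving out 1 library gave 0.02 to 0.21 for Camk2b, 0.025 to 0.12 for Calm3, 0.036 to 0.13 for Camk2g, -0.039 to 0.17 for Camk2a (lowest without Cdk7_KO replicate 3), -0.11 to 0.11 for Camk2d, -0.0072 to 0.30 for Camk4 (lowest without Cdk7_KO replicate 3), -0.052 to 0.12 for Camkk1 and -0.087 to 0.080 for Camkk2. For the shares it gave, in points, -0.356 to 0.124 for Camk2a, -1.05 to 1.53 for Camk2b and -1.19 to 1.13 for Camk2g (Camk2b lowest and Camk2g highest without Ctrl replicate 4), -0.131 to 0.0047 for Camk2d, -0.586 to 1.53 for Camkk1 and 0.519 to 2.14 for Calm2. With 5 libraries a genotype, changes of a size inside the reported intervals were not excluded. These intervals hold for each gene alone and are not adjusted over all genes tested.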
